A study of Mus musculus with 4 samples.

Results

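Egr1 and 9 other genes that respond to ERK signalling were read on expression arrays of mouse embryonic stem (ES) cells. The 10 genes are Egr1, Egr2, Fos, Junb, Ier3, Dusp6, Spry2, Spry4, Etv4 and Etv5. Their 11 probes were found through the RefSeq transcript that the array annotation gives for each probe, among 55562 probes and 20257 named genes with a value. The group was chosen by the processed signals of Egr1, which are lower in each Nup98-HoxA9 clone than in the parental line. The values of the 10 genes in that contrast are therefore a description and carry no test.

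The study asked what the leukaemia-associated fusion Nup98-HoxA9 does to gene expression in ES cells, with 1 Agilent one-colour SurePrint G3 Mouse GE array for each of 4 lines. Parental ES is the EB3 line and carries no transgene. Nup98-HoxA9 ES clone #1 and clone #9 are stable clones of it that express a FLAG-tagged join of the N-terminus of human Nup98 with the C-terminus of HoxA9, and the HoxA9-Ct ES line is a stable clone that expresses the FLAG-tagged HoxA9 C-terminus alone. The 3 transgenic lines were made with a Tol2 transposon and selected in hygromycin B, and all lines were grown on gelatin in serum with LIF. Each transgenic line is 1 clone with its own insertions, and neither parental ES nor HoxA9-Ct ES has a replicate. The 2 clones are therefore the only replicates, and every spread quoted between samples is the spread between these clones.

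The ERK pathway carries signals from FGF and other growth factors through RAS, RAF and MEK to the kinases ERK1 and ERK2. ERK phosphorylates ETS factors that sit with serum response factor (SRF) on CArG boxes, and within minutes immediate early genes such as Egr1, Fos and Junb are transcribed. A slower layer of ERK targets limits or carries on the signal: Dusp6 is a phosphatase that inactivates ERK, the Sprouty proteins restrain receptor signalling upstream, and Etv4 and Etv5 are ETS factors. In ES cells, FGF4 acting through ERK primes the cells for differentiation, and LIF acting through STAT3 holds them undifferentiated.

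The CArG box is shown because it is the element through which SRF acts on immediate early genes. RefSeq promoters on GRCm38.p6, from 250 bases before to 50 after a transcript start, were matched for 7 of the 10 genes (12 promoters). Egr1, Spry4 and Etv4 were not matched, so nothing is said here of motifs in their promoters. A CArG box on either strand was found in this window in 1.63% of 32851 promoters and, among the 7 genes, in Egr2 only. A box outside the window, at Fos or any other gene, would have been missed. Egr2 has several annotated starts, whose promoters hold 2 different boxes, and of the other pathway genes described here Myl9 and Dusp5 have one. The lines below give 30 bases 5′ to 3′ on the plus strand with the box in capitals. The Dusp5 window holds another CArG box in lower case directly before the one in capitals.
Egr2, chr10:67537484-67537513: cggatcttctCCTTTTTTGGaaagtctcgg
Egr2, chr10:67537787-67537816: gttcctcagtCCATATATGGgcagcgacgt
Dusp5, chr19:53529063-53529092: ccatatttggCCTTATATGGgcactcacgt
Myl9, chr2:156775293-156775322: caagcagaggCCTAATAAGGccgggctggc
Further motifs were searched on both strands of the same promoters. The EGR site GCGGGGGCG was in 2.91% of all promoters, the CRE TGACGTCA in 1.79% and the AP-1 site TGACTCA in 5.2%, and none of the 7 genes had any of them in this window. A match is a string of letters and does not show that a factor binds there.

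Signals are Agilent processed intensities, and log2 levels are relative to the 75th percentile of the same array. A level can be set against the same probe in another line but not against another probe. A spot is called well above background by the scanner software, and the dimmest such level was between -4.62 and -4.23 on the log2 scale on the 4 arrays. By that call, 9 of the 10 genes were measured in all lines and Egr2 in none. In 399 probes with 10 spots each, the median SD between spots of a probe was 0.0566 to 0.0631 where the log2 level was over -1 and 0.226 to 0.271 where it was under -3, so the dim genes (Fos, Junb and Spry4) are read with more error than the others. The ES label was checked against 8 markers, and 8 of 8 were well above background in every line and limma called none of them in any contrast. Pou5f1, Sox2 and Nanog, the core pluripotency factors, had log2 ratios to parental ES of -0.07, -0.01 and 0.20 (clone #1), -0.28, -0.33 and -0.40 (clone #9) and -0.12, 0.03 and -0.20 (HoxA9-Ct).

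Egr1 encodes the zinc-finger factor that is the classical nuclear readout of ERK activity. Parental ES gave a processed signal of 677, clone #1 gave 75.9, clone #9 gave 43.4 and HoxA9-Ct ES gave 503. The clones were low and the other lines high, with no overlap. The signal of clone #1 was 8.65-fold and that of clone #9 17.2-fold lower than in parental ES after scaling, and the mean log2 ratio of the clones was -3.61 ± 0.70 (SD, n = 2). Set against HoxA9-Ct ES the same clones were 7.04-fold and 14.0-fold lower. With normexp background correction, which pulls dim values together, the ratios to parental ES were -2.34 and -2.91. The probe was well above background in all 4 lines, with median pixels of 667, 98.0, 66.5 and 479 over local backgrounds of 17, 18, 19 and 16. Among probes named by RefSeq accession Egr1 has 1 probe with 1 spot, so its values rest on a single spot in each line, and in bulk RNA fewer cells that express a gene and less RNA of it per cell cannot be told apart.

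Few probes were as low, which describes a gene that was chosen for its fall in both clones. Of 25529 probes well above background in all lines, 20 besides Egr1 had a ratio in clone #1 at or below that of Egr1. In clone #9 there were 6 such probes besides Egr1, and 1 probe other than Egr1 was as low in both clones. The median ratio over these 25529 probes was -0.03 in clone #1 and -0.12 in clone #9.

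**Figure D1:**
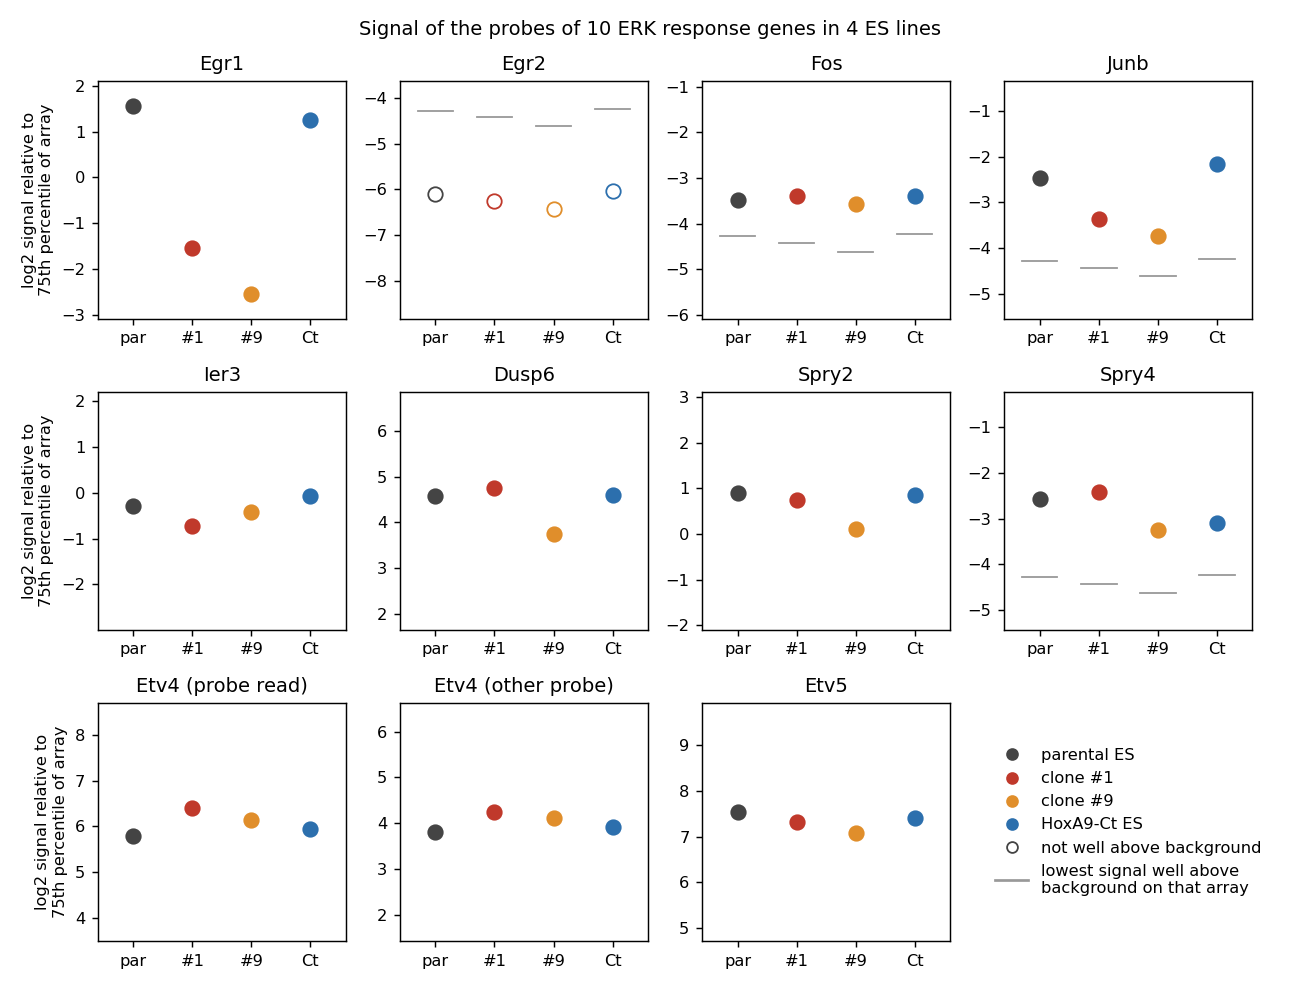
Log2 signal relative to the 75th percentile of the array (y axis, each panel spanning the same number of log2 units) for each of the 11 probes of the 10 genes in parental ES (par), clone #1, clone #9 and HoxA9-Ct ES (Ct), 1 array a line. Open circles are not well above background, grey lines mark the dimmest level called so, and only the Egr1 panel separates both clones from the other lines by several log2 units (levels of 1.56 and 1.27 against -1.55 and -2.54).

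Junb, the AP-1 subunit that is also a target of LIF-STAT3 signalling, was the member next lowest in both clones. Parental ES gave 41.6, clone #1 gave 21.6, clone #9 gave 19.0 and HoxA9-Ct ES gave 47.1. Both clones lay below the other lines. Clone #1 was 1.87-fold and clone #9 2.41-fold lower than parental ES, and against HoxA9-Ct ES their log2 differences were -1.21 and -1.58. At log2 levels of -3.36 and -3.73 in the clones, Junb sits where background matters: with normexp background correction its ratios were -0.34 and -0.55 in place of -0.90 and -1.27.

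Fos, the partner of the JUN proteins in AP-1 and the best known SRF target, is the only member printed in many copies, with 10 spots for its probe. The lowest, median and highest spot were 12.7, 20.0 and 40.1 in parental ES, and 17.0, 21.4 and 24.3 over the 9 usable spots of clone #1. They were 13.4, 22.0 and 26.9 for clone #9, and 14.9, 20.8 and 24.3 for HoxA9-Ct ES. The spots of the 4 lines overlapped throughout. Mean log2 levels in the same order were -3.49, -3.39, -3.57 and -3.38, with SDs between spots of 0.42, 0.15, 0.28 and 0.22. The transgenic lines differed from parental ES by 0.10, -0.08 and 0.11, and Fos was dim in every line.

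**Figure D2:**
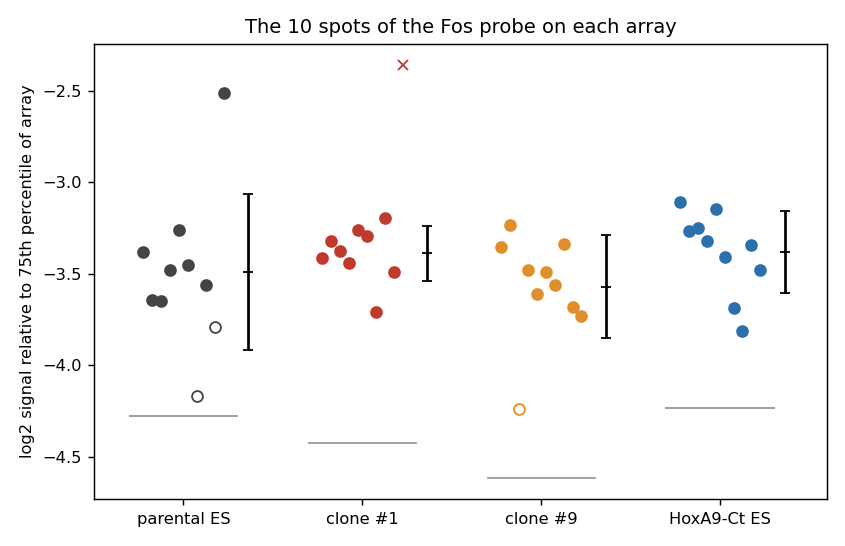
Log2 signal relative to the 75th percentile of the array (y axis) of each of the 10 spots of the Fos probe on the 4 arrays, with the mean ± SD of the spots used beside them. Filled circles are spots well above background, open circles are not, the cross is the clone #1 spot left out as an outlier and grey lines mark the dimmest level called well above background on the array; the spots of the lines overlap, with means from -3.57 to -3.38.

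The remaining immediate early members are Egr2 and Ier3. Egr2, a close relative of Egr1 with the same DNA-binding zinc fingers, did not reach the above-background call in any line, with signals of 3.35, 2.89, 2.96 and 3.18 in the same order, so no fold is given. Ier3, a stress-response protein that binds ERK, had signals of 188 (parental), 135 (clone #1), 188 (clone #9) and 198 (HoxA9-Ct). After scaling, clone #1 was 1.35-fold below parental ES and clone #9 had a log2 ratio of -0.14.

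At the 3 feedback inhibitors clone #9 was the lower of the clones. For Dusp6 the signals were 5480 (parental), 6001 (clone #1), 3395 (clone #9) and 5108 (HoxA9-Ct), so clone #1 was not below the lines without the fusion and clone #9 was 1.78-fold below parental ES. Spry2 had signals of 426, 370, 273 and 378 in the same order, with clone #9 again lowest and 1.72-fold below parental ES. Spry4 was dim, at 38.4, 41.6, 26.6 and 24.4, and there clone #9 and HoxA9-Ct ES were both lower than parental ES and clone #1.

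Etv4 and Etv5, the ETS factors, were among the bright probes and varied little. At the probe read here Etv4 had signals of 12659 (parental), 18692 (clone #1), 17846 (clone #9) and 12815 (HoxA9-Ct), 1.52-fold and 1.28-fold higher in the clones. Its second probe gave the same order of parental ES below both clones, at 3196, 4205 and 4389, with 3161 in HoxA9-Ct ES. Etv5 had signals of 42902, 35725, 34372 and 35430, so all 3 transgenic lines lay below parental ES, by 1.16-fold in clone #1 and 1.38-fold in clone #9. Etv4 was the 1 member with a ratio above 0 in both clones.

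Counted together, 1 of the 9 members well above background (Egr1) lay more than 2-fold under parental ES in each clone, as did 1.57% of the 27276 probes well above background in parental ES. Because Egr1 chose the group, nothing is read from that count. Junb lay just outside, with a ratio of -0.90 in clone #1. In clone #1 by itself 1 member passed 2-fold downward (Egr1, beside 3.18% of probes) and in clone #9 2 did (Egr1 and Junb, beside 3.63%). No member passed 2-fold upward, in clone #1 (2.45% of probes), in clone #9 (5.73%) or in both (1.51% of 26871 probes), and none passed it either way in HoxA9-Ct ES (0.851% of probes downward and 1.4% upward). The median ratio of the 9 members was -0.16 in clone #1 and -0.67 in clone #9, and without Egr1 it was -0.03 and -0.57.

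**Figure D3:**
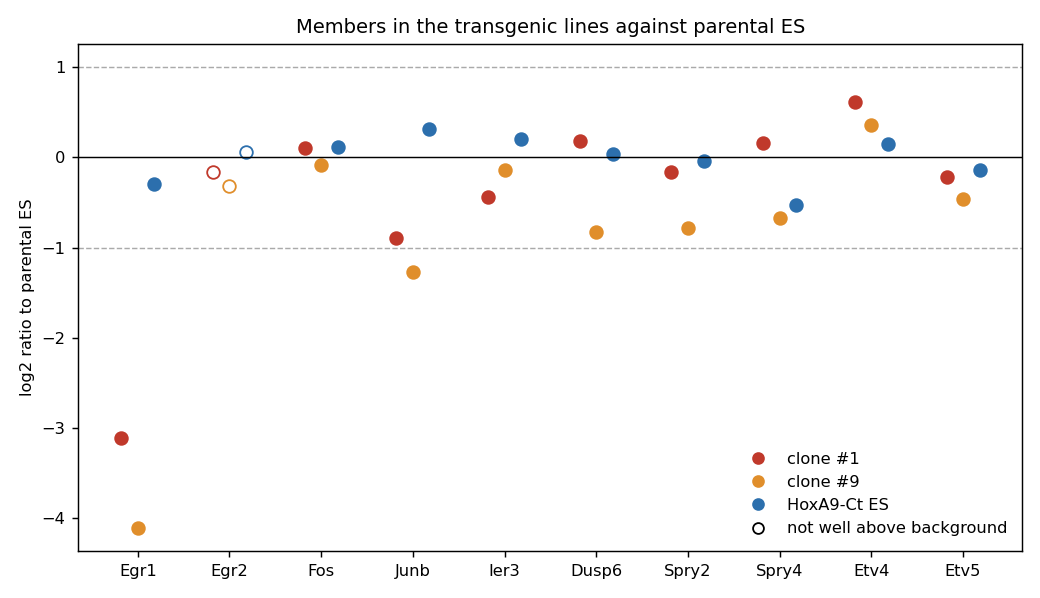
Log2 ratio to parental ES (y axis) of each of the 10 genes (x axis) in clone #1, clone #9 and HoxA9-Ct ES, 1 array each; dashed lines mark 2-fold, and open circles are not well above background. Egr1 is at -3.11, -4.11 and -0.30, Junb is the other gene with both clones well below HoxA9-Ct ES, and Dusp6, Spry2 and Spry4 have clone #9 below clone #1.

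The clones were set against each other because they carry the same fusion. Clone #9 was lower than clone #1 at 8 of the 9 members, by a median of -0.37 on the log2 scale, where the median over all probes well above background in all lines was -0.08. The difference was -1.01 for Dusp6, -0.99 for Egr1, -0.83 for Spry4 and -0.62 for Spry2, and 0.29 for Ier3, the exception. Dusp6 was the 1 member over 2-fold lower in clone #9 than in clone #1, against 1.6% of probes, and it passed by little. Its ratios to parental ES were 0.18 (clone #1) and -0.83 (clone #9). With quantile normalization they were 0.21 and -0.73, which is under 2-fold between the clones. Each clone has 1 array, so a difference between them has no replicate check. The difference also depends on how dim values are treated: with normexp background correction the median was -0.21.

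HoxA9-Ct ES against parental ES is the contrast that did not choose the genes, and it sets the HoxA9 C-terminus without the Nup98 part against no transgene. limma called 0 of the 10 members, where 0.216% of 55562 probes were called higher and 0.189% lower, and 0 members had an unadjusted p under 0.05 in any of the settings tried. For Egr1 the difference was -0.30 on the log2 scale (95% interval -1.55 to 0.96, limma adjusted p = 1.00). That interval still holds values more than 2-fold lower, and it assumes that a single array on each side varies like the clones. The largest member difference was that of Spry4, at -0.53 (95% interval -1.78 to 0.73), and the median over the 9 members was 0.03. Parental ES serves in this contrast and in that of the clones, so these contrasts are not independent.

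Against HoxA9-Ct ES, 2 members lay more than 2-fold down in each clone, Egr1 and Junb (1.69% of 27272 probes did), and none lay as far up (1.16%). limma called 1 member, Egr1, where 0.688% of probes were called lower and 0.673% higher. The clone arrays also chose the genes, so these counts describe the same arrays a second time. With quantile normalization limma called no probe at all in this contrast, Egr1 included, although 5394 had an unadjusted p under 0.05.

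The rest of the pathway was read in 124 further genes from lists of immediate early genes, ERK feedback genes, FGF ligands and receptors, the RAS-ERK cascade, partners of SRF and EGR, cytoskeletal SRF targets, heat shock genes, LIF-STAT3 targets and genes raised by MEK inhibition. In the clones against parental ES, limma called 2 of the 124 higher and 3 lower, where it called 0.781% of all probes higher and 0.625% lower. The median ratio of the 106 genes well above background in all lines was -0.04 in clone #1 and -0.05 in clone #9, close to the -0.03 and -0.12 of all such probes. No pathway gene was called in HoxA9-Ct ES against parental ES. With quantile normalization, and when only probes above background on some array were fitted, limma called no probe of the whole array.

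The 3 genes called lower were all FGF ligands, but Fgf4, the ligand named above, was not among them. Fgf17, of the FGF8 subfamily, had signals of 204 (parental), 41.0 (clone #1), 41.5 (clone #9) and 119 (HoxA9-Ct), which is 4.84-fold and 5.44-fold lower in the clones (limma adjusted p = 0.00320). Fgf15, the mouse counterpart of the human hormone-like FGF19, had 337, 62.2, 89.4 and 172, 5.25-fold and 4.16-fold lower (limma adjusted p = 0.00754). For both genes HoxA9-Ct ES lay between parental ES and the clones, and limma did not call the clones against HoxA9-Ct ES (adjusted p = 0.109 and 0.342). With quantile normalization, where neither was called, their log2 differences from parental ES were -2.37 and -2.23 against -2.36 and -2.22, and with normexp, where both were called, they were -1.35 and -1.51. Fgf5, a marker of the primed epiblast, was well above background in parental ES only, at 17.7 against 2.85, 8.47 and 11.1. That makes it at least 1.77-fold lower in the clones. limma called its raw log2 difference of -1.90 (adjusted p = 0.0471), which takes in clone values below background. The call was lost with normexp (a log2 difference of -0.34), with a floor (-0.83), and with quantile or median scaling. It was also lost with only probes above background on some array, outlier spots kept, or trend and robust variances. Fgf4 had signals of 15361 (parental), 13906 (clone #1), 16251 (clone #9) and 12640 (HoxA9-Ct), with log2 ratios of -0.10 and -0.06 in the clones. Fgf8 had log2 ratios of -0.84 and -0.33 in the clones, and neither ligand was called. The list holds 10 FGF ligands and receptors, and none of them was called higher.

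The genes called higher were both dim. Atf3, a stress-induced immediate early factor of the ATF/CREB family, was above background in the clones alone, at 7.81 (parental), 21.0 (clone #1), 63.2 (clone #9) and 7.41 (HoxA9-Ct). As a bound, its rise from parental ES to the clones is at least 2.97-fold. limma tested the raw log2 difference of 2.17 and called it (adjusted p = 0.0106), and it called the clones against HoxA9-Ct ES as well (adjusted p = 0.0150). With normexp the log2 difference of Atf3 from parental ES was 0.41 and was not called. Dusp5, a nuclear ERK phosphatase, was called (adjusted p = 0.0344) without being well above background in any line, so no fold is given. HoxA9-Ct ES was at the signal of the clones (11.8 against 12.9 and 11.9, with 3.08 in parental ES), and the call was lost with normexp, a floor, outlier spots kept, and trend and robust variances. Atf3 was the only call among 30 other immediate early genes and Dusp5 the only one among 18 other feedback and ETS target genes.

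Genes that limma did not call against parental ES but that differed more than 2-fold the same way in both clones were few. Egr4, another member of the EGR family, had signals of 24.8 (parental), 8.73 (clone #1), 12.9 (clone #9) and 17.0 (HoxA9-Ct). With the clones below background it was at least 2.21-fold lower, and its raw log2 difference was -1.27 (limma adjusted p = 0.507). Fgfr3, an FGF receptor, had 71.2, 144, 352 and 101, 2.08-fold and 4.48-fold higher in the clones (adjusted p = 0.166), while its second probe gave log2 ratios of 0.25 and 0.70. Nr4a2, an orphan nuclear receptor of the immediate early class, had 18.8, 50.9, 42.4 and 22.7 (adjusted p = 0.524), and its second probe gave 0.44 and -0.32, so its probes disagree in clone #9.

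**Figure D4:**
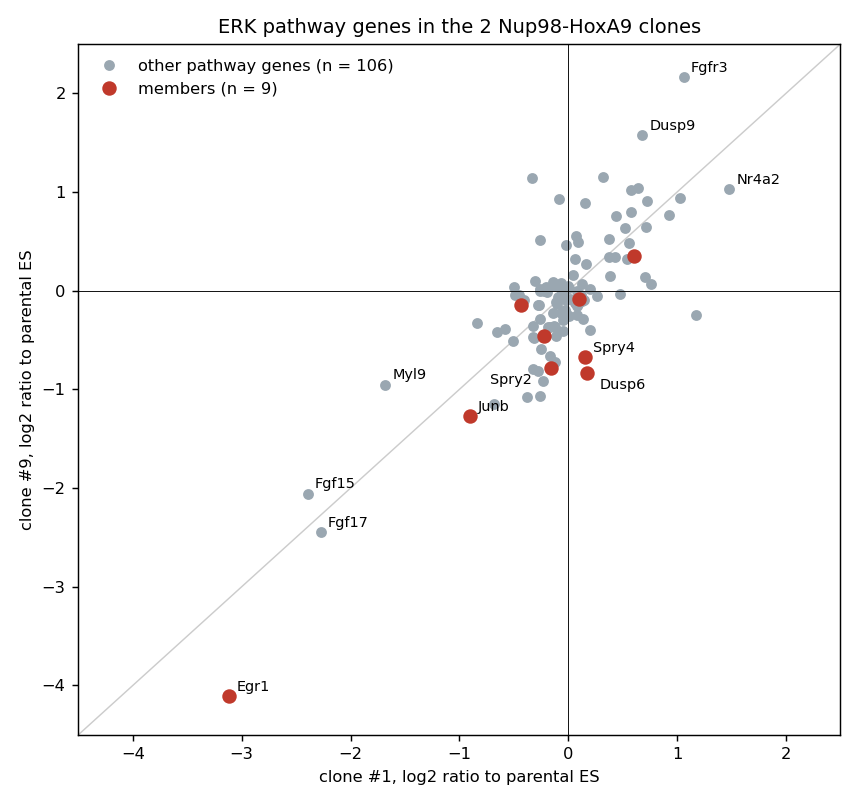
Log2 ratio to parental ES in clone #1 (x axis) and clone #9 (y axis) of the genes well above background in all lines, 9 members in red and 106 other pathway genes in grey, with the line of equal ratios. Egr1 lies farthest from the origin, Fgf15 and Fgf17 follow at ratios between -2.06 and -2.44, and Dusp6, Spry2 and Spry4 lie below the line.

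In the machinery of the pathway itself no gene was called in the clones against parental ES. None of 23 genes of the RAS-ERK cascade was called, and the 22 of them well above background in all lines had ratios from -0.58 to 1.03 in clone #1 and from -0.79 to 0.93 in clone #9. None of 9 partners of SRF and EGR was called either (-0.32 to 1.17 and -0.48 to 0.56), nor any of 8 heat shock genes, 10 LIF-STAT3 targets (Junb among them) or 9 genes raised by MEK inhibition. Their medians lay between -0.22 and 0.20 in clone #1 and between -0.14 and -0.06 in clone #9. A missed threshold at this number of arrays does not show equal levels: the standard error of a difference between the clones and parental ES was 0.56 on the log2 scale.

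Myl9, a myosin light chain and a target of SRF with its MRTF cofactors, was the 1 pathway gene lower in the clones than in HoxA9-Ct ES by limma. Parental ES gave 679, clone #1 gave 205, clone #9 gave 388 and HoxA9-Ct ES gave 1374. The clones were thus below and HoxA9-Ct ES above parental ES, and the clones were -2.47 from HoxA9-Ct ES on the log2 scale (adjusted p = 0.00167) but were not called against parental ES (adjusted p = 0.442). It was the only one of 10 cytoskeletal SRF targets called in any contrast.

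Markers of other cell states moved in the same clones as Egr1, and their part in its values was not tested. Of 9 primitive endoderm markers, Gata6, Sox17 and Pdgfra were called higher in the clones than in parental ES and 7 of 9 passed 2-fold upward in each clone. Against HoxA9-Ct ES 7 were called higher, but that line was itself below parental ES at all 7. Its log2 difference from parental ES was -2.94 for Sox17, which was called lower. The Sox17 signal there (3.90) was not above background, and the second Sox17 probe gave -1.20. For Dab2, Foxa2, Gata6 and Gata4 the difference was -2.05, -1.91, -1.39 and -1.16, and for Pdgfra and Col4a1 -0.67 and -0.58, none of them called. Dab2, Foxa2 and Pdgfra were not above background in HoxA9-Ct ES, nor was Pdgfra in parental ES, so the size of their differences is uncertain. The summed level of the 9 markers, which follows the Lamb1 probe and not the markers that were called, was 22.8 (parental), 21.6 (clone #1), 29.0 (clone #9) and 19.3 (HoxA9-Ct) times the 75th percentile of the array. Of 7 trophectoderm markers, Cdx2, Elf5 and Krt8 were called higher (summed level 13.4, 21.7, 38.7 and 12.0), with Cdx2, Elf5 and Gata3 not above background in parental ES. Elf5 was above background in clone #1 alone, and the sum follows mostly Krt18 and Tfap2c, which were not called. Of 5 primed epiblast markers, Fgf5 and Otx2 were called lower (summed level 99.4, 62.9, 58.0 and 108, which follows mostly Dnmt3b, not called). The Fgf5 call was lost in most of the other settings, as given above. Of 5 neural markers Pax6 was called lower. Pax6 was dim in parental ES (19.4) and not above background in the clones, which makes it at least 1.94-fold lower, and its second probe was above background in no line. None of 6 mesoderm or 8 fibroblast markers was called against parental ES, the latter summing to 7.83, 9.60, 17.9 and 10.8. The probes of the mesoderm marker Kdr disagree: the probe read gave log2 ratios of 0.09 (clone #1) and -0.26 (clone #9). Its second probe, well above background in all lines, gave -2.06 and -1.58, with -1.47 in HoxA9-Ct ES. That probe was not called in the clones against parental ES (limma adjusted p = 0.0667). Hand1, which is on both the mesoderm and the trophectoderm list, was called higher than in HoxA9-Ct ES (limma adjusted p = 0.0129), and it was above background in clone #9 alone.

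The genes whose ratios in the 3 transgenic lines were most like those of Egr1, by Euclidean distance over 3 log2 ratios among probes well above background in all lines, were Spink1, Grhl2, Sp5, Tmprss13 and Prdm1. Spink1, a secreted trypsin inhibitor, was nearest, at a distance of 0.85 with ratios of -3.38 (clone #1), -3.47 (clone #9) and 0.20 (HoxA9-Ct) and signals of 3654, 341, 363 and 3830 from parental to HoxA9-Ct ES. Grhl2, an epithelial transcription factor, followed at 1.34 with -2.43, -3.14 and -0.92, and its second probe gave -2.47, -3.30 and -1.03. Sp5, a Wnt target of the Sp1 family, was at 1.40 with -2.37, -3.20 and -1.06. Tmprss13, a membrane serine protease, was at 1.51 with -2.46, -2.75 and -0.44, and Prdm1, the repressor also known as Blimp1, was at 1.62 with -2.44, -2.63 and -0.39. All 5, like Egr1, were lower in clone #9 than in clone #1, with log2 differences of -0.10 (Spink1) to -0.83 (Sp5), and all 5 were lower than parental ES by less than Egr1 was in clone #9. No other member was among the nearest genes. The distances rest on 3 ratios that share the parental array and are a description of these arrays.

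**Figure D5:**
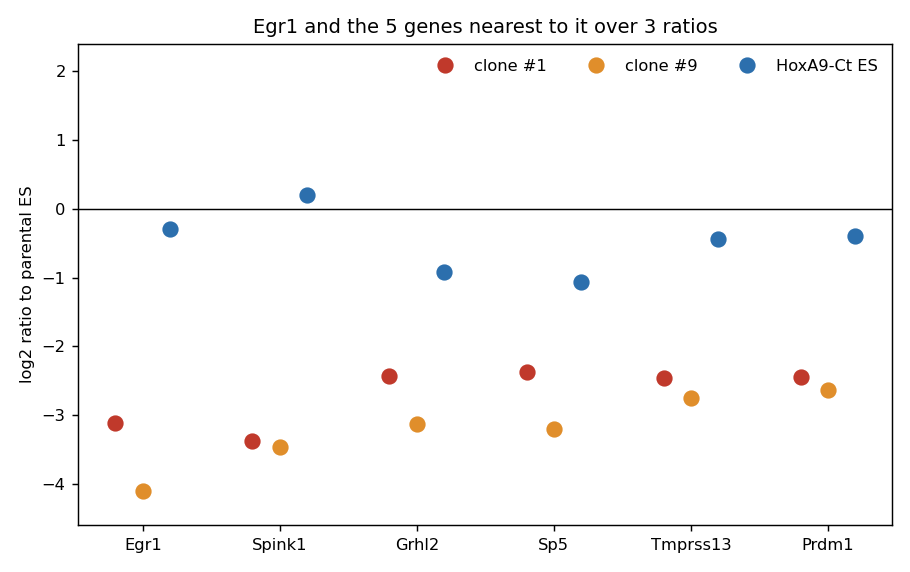
Log2 ratio to parental ES (y axis) in clone #1, clone #9 and HoxA9-Ct ES, 1 array each, for Egr1 and the 5 genes nearest to it (x axis, in order of distance). In all 6 genes both clones lie between -2.37 and -4.11 and HoxA9-Ct ES lies between -1.06 and 0.20.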

How the data were processed

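RNA of 4 ES lines was hybridised as Cy3-labelled cRNA to 4 arrays of 1 slide and 1 scan. The authors extracted the images with Agilent Feature Extraction 10.10.1.1. The deposited tables of the scans give each spot an intensity: a processed signal after background subtraction, and median pixels of the spot and its surroundings. A deposited series matrix repeats the processed intensities, multiplied by a constant for each array (3.19 to 3.63, to within 0.763%). From these, processed signals were divided by the 75th percentile over 59305 non-control spots (209 to 253 on the arrays) and put on the log2 scale, and spots of a probe were averaged without outlier spots (143 to 201 an array). The share of spots well above background ran from 49.9% to 53.0%, and 0 were saturated.

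Symbols came from RefSeq accessions, which named 26762 of 55681 probes. Promoters and their coordinates are those of RefSeq on GRCm38.p6, while the array is annotated on mm9. A gene is read at its brightest probe. Where 1 side is below background, the fold is a bound against the dimmest level called well above background on that array or the probe's own level, whichever is higher. Of 126 listed pathway genes 124 had a value.

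limma 3.58.1 in R 4.3.3 (lmFit, eBayes, 3 groups, 1 residual degree of freedom) was used with Benjamini-Hochberg adjustment over 55562 probes at 0.05, and the fit was tested on simulated data. The prior SD was 0.454 for all probes, dim ones included, with infinite prior degrees of freedom. The p-values thus rest on the spread between 2 clones pooled over all probes, and a probe's own spread carries no weight. Every probe has the same standard error in a contrast, and intervals are 1.96 standard errors. Nothing in the labels says that the clones were cultured or extracted apart. Figures and counts used Python 3.11.15, numpy 2.4.6, pandas 2.3.3 and matplotlib 3.10.9. Alternatives were normexp (offset 50, on median pixels because the mean is not in the files used), quantile or median scaling, the series matrix, filters, a floor, outlier spots kept, all probes of a gene, trend and robust variances, other folds, the other reference and leaving out each clone.

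The members and lists were chosen with earlier results of these data known. Genes named are the members, listed genes called in a contrast or over 2-fold the same way in both clones, the 5 genes nearest to Egr1, and Pou5f1, Sox2 and Nanog. The number of arrays limits the precision.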

Additional observations from a re-analysis of the deposited data

Results flagged for a closer look

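A few genes stood out for a difference between the lines that carry the fusion and the line that carries the HoxA9 C-terminus. The mean of the clones minus HoxA9-Ct ES was -3.31 on the log2 scale for Egr1, which limma called, and because the clone arrays chose Egr1 this is a description. Myl9, at -2.47, was called on the same contrast, with the clones below parental ES and HoxA9-Ct ES above it. Junb and Ier3, at -1.40 and -0.50, stood out because both clones were below parental ES and HoxA9-Ct ES above it; limma called neither in this contrast, and the opposite directions were not tested beyond that. Ier3 in clone #9 was within 0.14 of parental ES.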

How the results depend on the processing

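The mean Egr1 ratio of the clones (-3.61) was -2.63 with normexp and -4.11 to -3.11 when either clone was left out. The count of members more than 2-fold lower in both clones (1) was 2 at 1.5-fold, 2 with HoxA9-Ct ES as the reference and 1 to 2 when either clone was left out, Junb being the second. Members called against HoxA9-Ct ES (1) were 0 with quantile normalization, 0 with bright probes only and 2 with a floor. Pathway genes called against parental ES (5) were 9 with normexp, 0 with quantile normalization, 0 with bright probes only, 3 with outlier spots kept and 10 with trend and robust variances. The median difference between the clones (-0.37) was -0.21 with normexp. HoxA9-Ct minus parental ES changed sign for Egr2 (-0.022 with quantile and -0.0076 with median scaling) and for Dusp6 (-0.015 with normexp and -0.036 with median scaling), all near 0, and 85 other such values kept their direction and their side of the threshold. Over all probes, limma called 781 for the clones against parental ES, 225 for HoxA9-Ct against parental ES and 756 for the clones against HoxA9-Ct ES. These were 0, 0 and 0 with quantile normalization (5104, 4185 and 5394 at an unadjusted p under 0.05) and with bright probes only (2224, 992 and 2136), 1243 and 1284 for the first and the third with trend and robust variances, and 73 with normexp and 125 with a floor for the second. Scaling moved the median of all probes in clone #9 from -0.27 to -0.03 (quantile) and -0.34 (median), and in clone #1 from -0.10 to -0.00 (quantile). No paired analysis was possible because parental ES and HoxA9-Ct ES have 1 array each, and their labels give no number that could pair them with a clone. Without 1 clone no residual degree of freedom is left, so no calls were made there. The causes were not tested. Low signal over background limits Fos, Junb, Spry4, Atf3, Fgf5 and Egr4.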
